A study of Mus musculus with 9 samples.

Results

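The genes described here are those by which heart muscle takes up fatty acids and burns them: 39 genes for uptake, activation, the carnitine shuttle, the beta oxidation enzymes of mitochondria and peroxisomes, electron transfer, and the neighbouring oxidation of branched-chain amino acids, lysine and ketone bodies. They were found by symbol: a probe set, the group of short probes that reports 1 transcript on the array, was taken for a gene when its annotation gave that symbol alone. Of the 39 genes, 34 had such a probe set (43 probe sets in all), out of 8251 genes on the array. The other 5, Acsl1, Cpt1b, Hadha, Acat1 and Acadsb, were not analysed here. Of the 34, 31 were bright enough to be tested, and all 36 of their tested probe sets lay above the 40th percentile of every array.

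The arrays report RNA from both ventricles of 9 females, each 3 months old, 1 array for each mouse and 3 for each group. Every animal overexpressed, from a transgene, the receptor of insulin-like growth factor 1 (IGF1R), and the IGF1R group had no other transgene. The IGF1R-caPI3K mice also carried constitutively active PI3K (p110), and the IGF1R-dnPI3K mice dominant negative PI3K (p110). PI3K is a lipid kinase that relays signals of this receptor. The labels also list animals with a PI3K transgene and no IGF1R transgene, and littermates with no transgene; these were not analysed here, so no value is relative to a normal heart. The promoter that drives the transgenes, the number of founder lines and the strain are not stated in the sources used here.

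Long-chain fatty acids reach the heart muscle cell after lipoprotein lipase frees them from circulating lipid, and transporters such as CD36 bring them in. They are joined to coenzyme A, passed into mitochondria as carnitine esters, and shortened in repeated rounds of dehydrogenation, hydration, a second dehydrogenation and thiolysis. The electrons of the first step leave through the electron transfer flavoprotein. In the adult heart this pathway is the main source of energy, and nuclear receptors of the PPAR and estrogen-related receptor families are known regulators of its genes.

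The promoters of 4 genes are shown because 3 of them (Etfb, Echs1 and Hsd17b10) passed both against IGF1R and against IGF1R-caPI3K mice, while Etfa, which encodes the partner subunit of Etfb, went the other way from Etfb. Each line is the 250 bases before the RefSeq transcription start (GRCm38.p6), read 5′ to 3′ on the gene's strand. Etfb lies at chr7:43443822-43444071 on the plus strand, Echs1 at chr7:140116422-140116671 on the minus strand, Hsd17b10 at chrX:152001646-152001895 on the plus strand and Etfa at chr9:55512244-55512493 on the minus strand. Capitals mark matches, on either strand, to the nuclear receptor half-site AGGTCA, the NRF1 motif (GCGCA, any base, GCGC), the CCAAT box and the GC box GGGCGG.
Etfb: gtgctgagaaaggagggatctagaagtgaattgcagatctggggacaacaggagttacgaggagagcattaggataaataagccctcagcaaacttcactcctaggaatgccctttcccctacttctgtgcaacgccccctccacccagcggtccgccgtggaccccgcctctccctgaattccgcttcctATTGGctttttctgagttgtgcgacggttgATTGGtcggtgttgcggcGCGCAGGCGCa
Echs1: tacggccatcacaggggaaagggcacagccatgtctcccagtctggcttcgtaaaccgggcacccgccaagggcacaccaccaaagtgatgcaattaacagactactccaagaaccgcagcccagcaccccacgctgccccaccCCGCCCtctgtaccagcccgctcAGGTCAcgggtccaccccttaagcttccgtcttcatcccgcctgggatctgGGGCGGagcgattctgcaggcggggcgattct
Hsd17b10: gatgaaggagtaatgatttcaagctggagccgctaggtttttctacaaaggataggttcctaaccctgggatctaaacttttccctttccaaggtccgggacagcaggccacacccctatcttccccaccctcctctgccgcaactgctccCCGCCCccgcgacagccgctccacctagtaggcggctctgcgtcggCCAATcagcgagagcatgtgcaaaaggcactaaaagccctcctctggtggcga
Etfa: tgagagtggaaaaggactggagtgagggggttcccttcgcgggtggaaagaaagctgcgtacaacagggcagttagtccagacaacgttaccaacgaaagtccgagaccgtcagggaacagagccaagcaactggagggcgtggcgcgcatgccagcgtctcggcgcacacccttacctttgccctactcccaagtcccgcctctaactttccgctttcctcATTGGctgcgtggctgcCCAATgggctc
The Etfb window held an NRF1 motif and a pair of CCAAT boxes in reverse, and the Etfa window held a CCAAT box in each direction and no NRF1 motif. The Echs1 window held the half-site and a GC box on each strand, and that of Hsd17b10 held a CCAAT box and a GC box. RefSeq windows matched 32 of the 39 genes (36 windows, against 32851 windows of all genes). The NRF1 motif was in 3 of the 36 windows (8.33%, against 3.74% of all), those of Dbi, Etfb and Etfdh. The half-site was in 6 (16.7%, against 14%), its extended form AAGGTCA, which contains it, in 2 (5.56%, against 4.08%), and its direct repeat with 1 base between the copies in 0 (against 0.0335%). The CCAAT box was in 17 (47.2%, against 33.8%) and the GC box in 23 (63.9%, against 32.7%). A match is a description of these letters only, and the windows of Hadha and Hadhb overlap on opposite strands.

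Some technical measures followed the groups. The CreX control had a 3′ over 5′ ratio of 1.05 to 1.26 on IGF1R arrays, 1.74 to 1.89 on IGF1R-caPI3K arrays and 1.79 to 1.83 on IGF1R-dnPI3K arrays. For Gapdh it was 0.747 to 0.818 on IGF1R arrays and 0.843 to 0.943 on the other 6. For Actb it was 1.04 to 1.24 on IGF1R, 1.01 to 1.04 on IGF1R-caPI3K and 1.09 to 1.15 on IGF1R-dnPI3K arrays. The Actb ratio thus did not separate the IGF1R arrays from the others. Array medians ran from 161.3 to 197.25. IGF1R-dnPI3K replicate 3 correlated with the remaining arrays at 0.927 on average across probe sets, against 0.947 to 0.956 for the others. IGF1R-dnPI3K replicates 2 and 3 came from mice with consecutive numbers of a series that no other group had, while the number of replicate 1 is close to those of 1 mouse in each other group. The labels do not say what the number series stand for. The mouse Igf1r probe set differed from the IGF1R group by 0.32 in IGF1R-caPI3K mice (adjusted p = 0.259) and by 0.97 in IGF1R-dnPI3K mice (adjusted p = 0.00827); whether it reads the transgene is not stated.

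With dominant negative PI3K added to the IGF1R transgene, 7 of the 31 measured genes rose and 1 fell. The genes that rose were Crat and Mlycd, which act around the carnitine shuttle, Echs1 of the core spiral, Ech1 and Eci1, which handle unsaturated chains, the electron transfer subunit Etfb, and Hsd17b10 of branched-chain breakdown. Etfa fell. Rises lay between 1.53-fold and 1.77-fold. Where arrays of a gene are said below to lie apart or not to overlap, the share of all genes that do so was not counted. The calls are from a linear model over all 9 arrays (limma, Benjamini-Hochberg adjusted p under 0.05 over 7898 probe sets), in which differences are given as log2 values ± SE. Over all 5942 genes tested, 6.24% rose and 7.51% fell. The median log2 difference of the 31 genes was 0.21, against -0.0845 over all genes. Above 0 lay 21 of 31, against 2500 of all 5942 genes. In whole ventricles, fewer cells of a type and less RNA per cell cannot be told apart.

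After quantile normalization, which gives every array the same distribution of signals, 6 genes rose (against 6.82% of all genes) and 3 fell (against 6.38%). The rise of Ech1 no longer passed, and Fabp3 and Acadm fell together with Etfa. The median was then 0.0857, against 0.0024 over all genes, and 19 of 31 lay above 0, against 2986 of all 5942 genes. With arrays scaled to a common median the median of all genes moved from -0.0845 to 0.0849, 10 of the 31 rose (against 11.4% of all genes), and 0 fell (against 3.99%). Taken relative to the median of all genes, the median of the 31 was 0.29 on the deposited scale and under common-median scaling, and 0.0833 after quantile normalization.

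**Figure D1:**
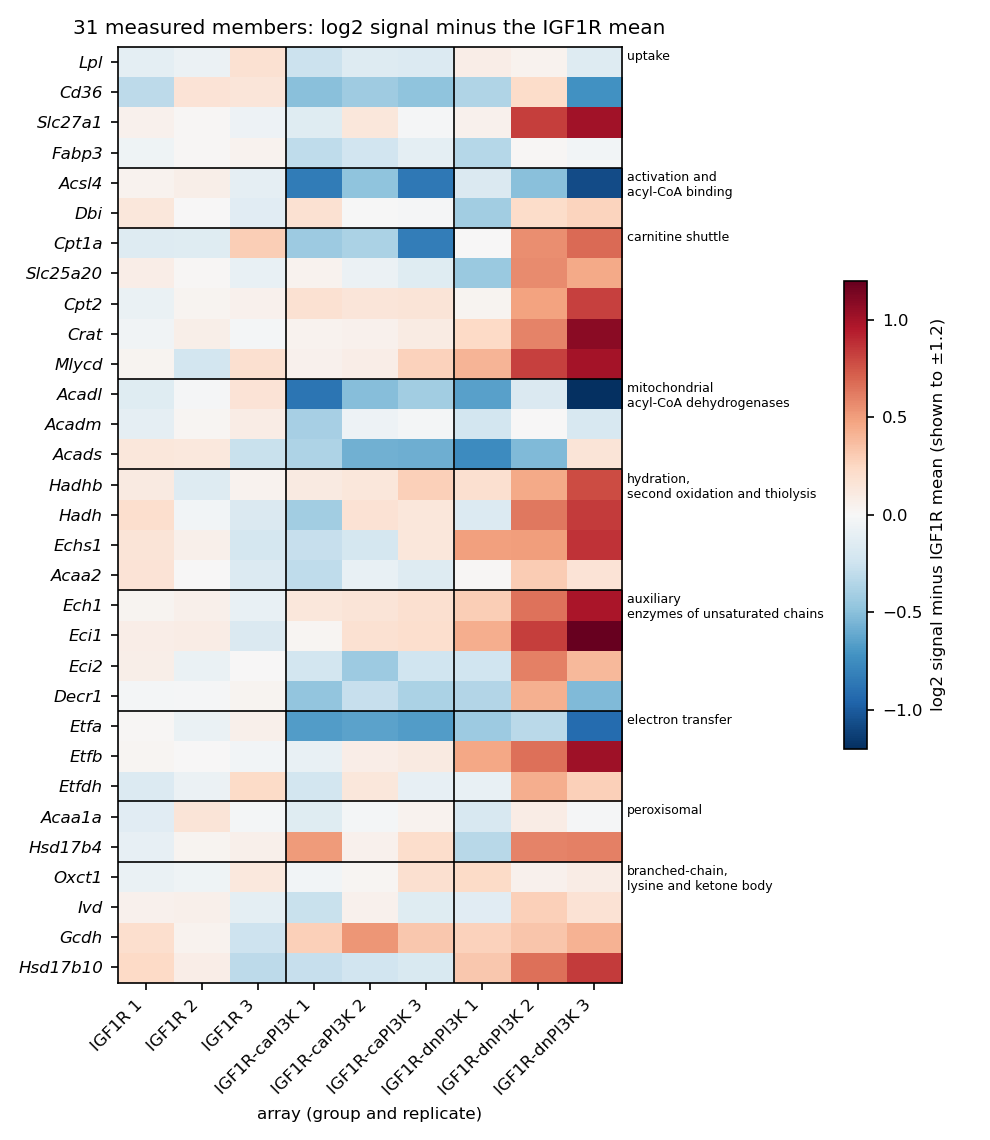
Log2 signal of the 31 measured genes on each of the 9 arrays, minus the gene's mean over the 3 IGF1R arrays. Rows are genes grouped by role and columns are arrays; red is above the IGF1R mean, blue below, with colours capped at 1.2. Carnitine shuttle genes, Echs1, Ech1, Eci1 and Etfb are deepest red on IGF1R-dnPI3K replicates 2 and 3, while Etfa is blue on all 6 arrays with a PI3K transgene.

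The IGF1R-dnPI3K mice did not shift alike. The median position of the 31 genes relative to the IGF1R mean was 0.43 on the array of IGF1R-dnPI3K replicate 2 and 0.39 on that of replicate 3, but -0.0921 on that of replicate 1. The IGF1R arrays lay between -0.0189 and 0.0284, and the IGF1R-caPI3K arrays at -0.22, -0.0268 and -0.0254. IGF1R-dnPI3K replicate 1 was the lowest of its group's 3 arrays in 24 of the 31 genes (77.4%), against 30.2% of all genes. A low replicate 1 was not particular to this group: IGF1R-caPI3K replicate 1 was the lowest of its group in 22 of 31 (71%), against 34.4%. The median SD of the 31 genes within the IGF1R-dnPI3K group was 0.34 on the log2 scale, against 0.25 over all genes. In the IGF1R and IGF1R-caPI3K groups it was 0.14 and 0.11, against 0.16 and 0.15 over all genes.

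Counts and values of the 31 genes are also given without replicate 1 and without replicate 3 of the IGF1R-dnPI3K group, as a description of how much single arrays carry. Replicate 1 was picked out by the values of these same genes, so that larger rises without it follow from the choice and support nothing. Without IGF1R-dnPI3K replicate 1, 15 of the 31 genes rose against IGF1R mice (10.2% of all genes rose) and 2 fell (13.9% of all genes fell). The 7 genes that rose with all arrays were among the 15. The others were Slc27a1, Cpt1a, Slc25a20, Cpt2, Hadhb, Hadh, Eci2 and Hsd17b4, and Acsl4 joined Etfa among those that fell. Without replicate 3, 5 rose (against 4.17%), all among the 7, and 2 fell (against 4.31%), Acads and Etfa. Without replicates 2 and 3, so that replicate 1 stood alone and was taken to vary like the other groups, 0 rose and 0 fell (against 1.19% and 1.46% of all genes) and the median was -0.0921. In a fit of the IGF1R and IGF1R-dnPI3K arrays alone, 0 of the 31 rose and 0 fell (against 0.825% and 0.707% of all genes). Because the mice of replicates 2 and 3 are the only ones of their number series, that series and the dominant negative transgene cannot be told apart in them.

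**Figure D2:**
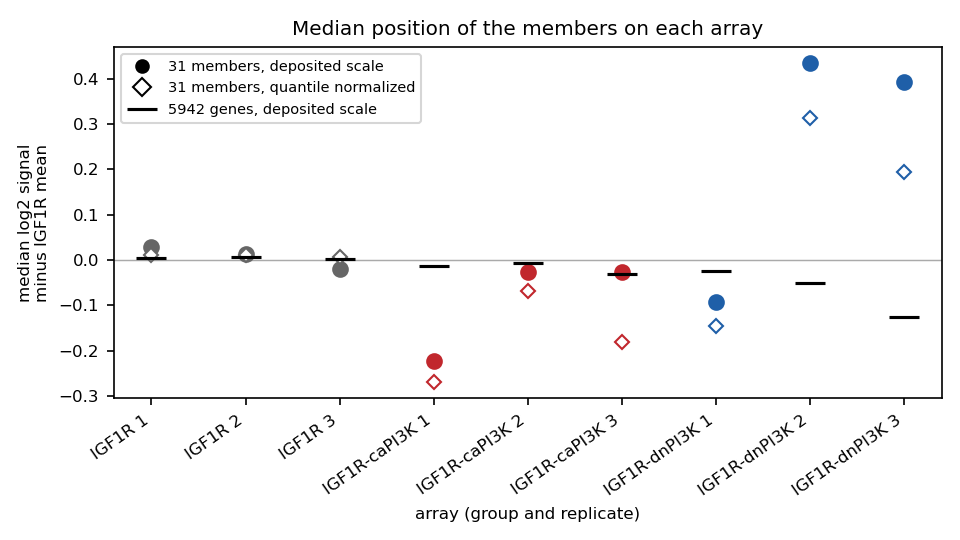
Median log2 signal minus the IGF1R mean on each array, for the 31 measured genes on the deposited scale (filled circles) and after quantile normalization (open diamonds), and for all 5942 genes on the deposited scale (bars). The 31 genes stand at 0.43 and 0.39 on IGF1R-dnPI3K replicates 2 and 3 and at -0.0921 on replicate 1.

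Active PI3K added to the IGF1R transgene gave another picture. Between IGF1R-caPI3K and IGF1R mice 0 of the 31 genes rose and 0 fell in limma, where 0.168% and 0.0505% of all genes did. An unadjusted limma p under 0.05 was found for 5 of the 31, against 1105 of all 5942 genes. The median difference was -0.0611, against -0.0275 over all genes, and 20 of 31 lay below 0, against 3195 of all 5942 genes. After quantile normalization Etfa fell and none rose (against 0.471% and 0.589% of all genes), and the median was -0.11. Then 23 of 31 lay below 0, against 2910 of all 5942 genes. A fit of the 6 arrays alone, which does not share the wide spread of the IGF1R-dnPI3K mice, gave 0 that rose (against 4.31% of all genes) and 5 that fell (against 4.73%): Acsl4, Acadl, Acads, Decr1 and Etfa. In the fit without IGF1R-dnPI3K replicate 3 Acsl4, Acadl and Etfa fell (against 3.7% of all genes).

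Set directly against each other, the mice with the 2 forms of PI3K differed in 3 of the 31 genes: Echs1, Etfb and Hsd17b10 were lower in IGF1R-caPI3K than in IGF1R-dnPI3K mice (0.555% of all genes were lower), and 0 were higher (against 0.774%). The median difference was -0.25, against 0.0452 over all genes, and 28 of 31 lay below 0, against 2584 of all 5942 genes. After quantile normalization Cpt1a joined them, which made 4 lower (against 0.774%) and 0 higher (against 0.875%). Then 25 of 31 lay below 0, against 2905 of all 5942 genes. Without IGF1R-dnPI3K replicate 1 there were 13 lower (against 2.95% of all genes), the 3 included. In a fit of the 6 arrays alone 0 were lower and 0 higher (against 0.0505% and 0.0673% of all genes). Without IGF1R-dnPI3K replicate 3 only Etfb was lower (against 0.353%). The comparisons share arrays, so that a gene high in IGF1R-dnPI3K mice enters both.

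**Figure D3:**
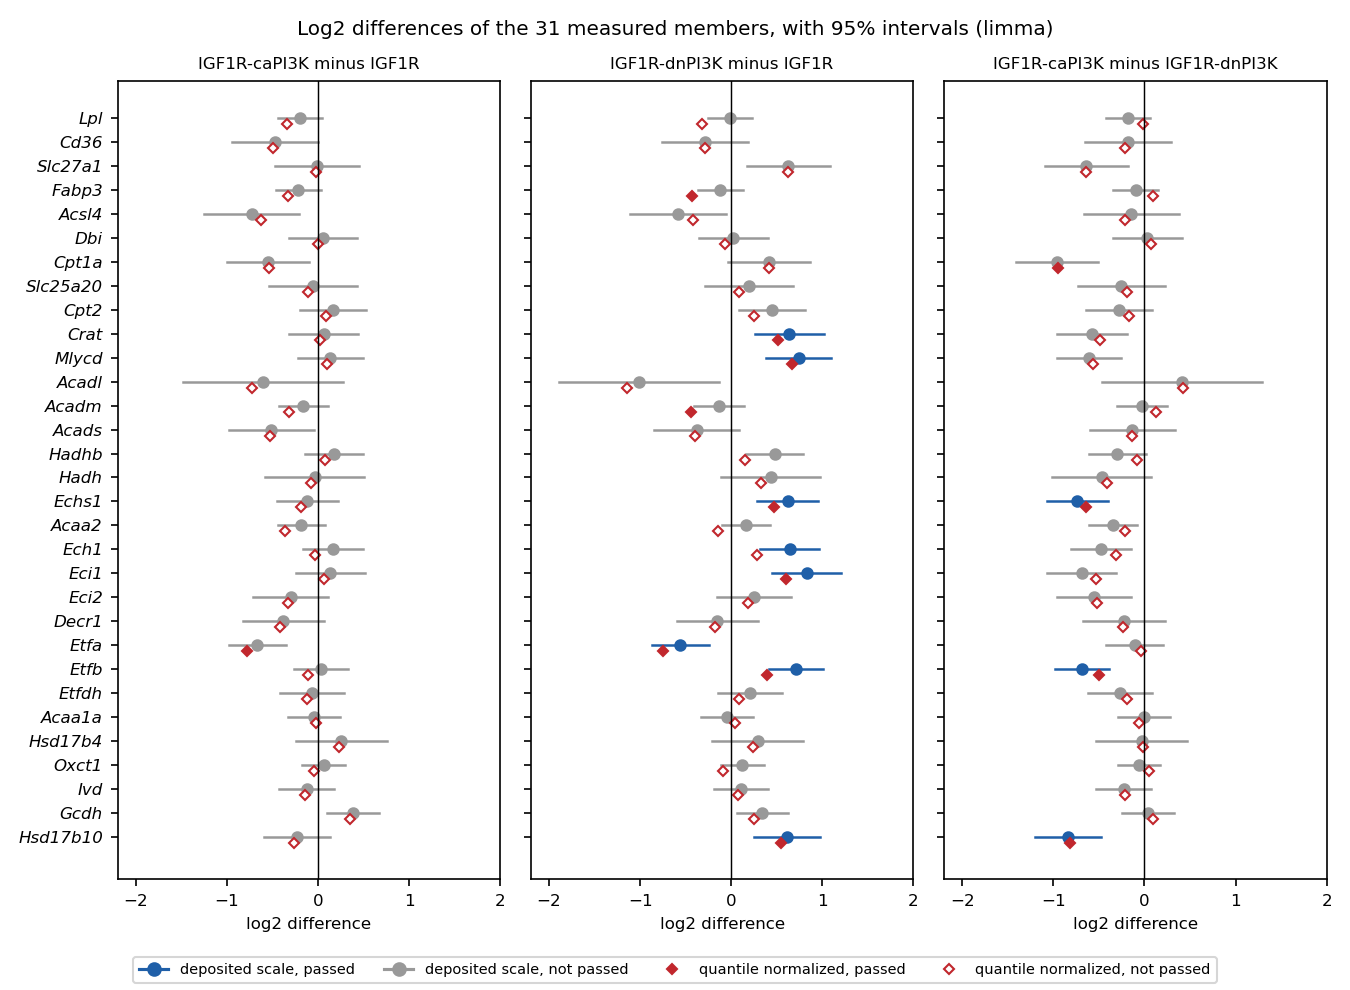
Log2 differences of the 31 measured genes in the 3 comparisons, with 95% intervals on the deposited scale (circles and lines, blue where limma's adjusted p is under 0.05) and the values after quantile normalization (diamonds, filled where they pass). Most circles lie to the right of 0 in IGF1R-dnPI3K minus IGF1R (21 of 31) and to the left in IGF1R-caPI3K minus IGF1R-dnPI3K (28 of 31). Of all 5942 genes, 2500 and 2584 did so.

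None of the 4 measured uptake genes passed in any comparison on the deposited scale, and their median difference between IGF1R-dnPI3K and IGF1R mice was -0.065. Lpl, which frees fatty acids from lipoproteins, had signals of 12151, 12572 and 14938.5 in IGF1R mice, 10991, 11824 and 11722 in IGF1R-caPI3K mice and 13914, 13578.5 and 11812 in IGF1R-dnPI3K mice. The IGF1R-caPI3K arrays lay below the IGF1R arrays, and the IGF1R-dnPI3K arrays overlapped with both other groups. The differences from IGF1R were -0.19 ± 0.11 with active and -0.0107 ± 0.11 with dominant negative PI3K. Its dimmer probe set gave -0.51 ± 0.24 and -0.59 ± 0.24. Neither probe set passed.

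Cd36, the fatty acid translocase, read 1294, 1810 and 1788 in IGF1R mice, 1141, 1201 and 1150 in IGF1R-caPI3K mice and 1253.5, 1876 and 974.5 in IGF1R-dnPI3K mice. The IGF1R-caPI3K arrays lay together below the IGF1R arrays (-0.47 ± 0.21, adjusted p = 0.275), and the IGF1R-dnPI3K arrays spanned both other groups. Another probe set of Cd36 was too dim to test, with 1.4 to 4.7. Fabp3, the fatty acid binding protein of heart muscle, read 13461.5, 14102 and 14376, then 11303.5, 11919.5 and 12899, then 11025, 14134 and 13666 in the same order of groups. It differed between IGF1R-dnPI3K and IGF1R mice by -0.12 ± 0.11 on the deposited scale (adjusted p = 0.492) and fell by 0.43 after quantile normalization (adjusted p = 0.0299), so that this call rests on the scaling; the deposited difference was -0.0079 without IGF1R-dnPI3K replicate 1 and -0.16 without replicate 3.

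Slc27a1, a fatty acid transport protein of muscle, differed among the IGF1R-dnPI3K mice. Its signals were 1124, 1097 and 1044 in IGF1R mice, 985, 1192.5 and 1076 in IGF1R-caPI3K mice and 1128, 1930 and 2182 in IGF1R-dnPI3K mice. IGF1R-dnPI3K replicate 1 lay beside the highest IGF1R array, and replicates 2 and 3 stood well above all others. The difference of 0.63 ± 0.21 did not pass with all arrays (adjusted p = 0.0665), and it was 0.92 ± 0.12 without replicate 1 (adjusted p = 0.00216), 0.44 ± 0.20 without replicate 3 (adjusted p = 0.192) and 0.0522 ± 0.14 without replicates 2 and 3. Slc27a2, a transport protein of liver and kidney, had signals of 3.6 to 10 and was not tested.

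Of the activation step Acsl4 and Dbi were measured, and neither passed. Acsl4, an acyl-CoA synthetase that prefers arachidonic acid, lay lower in both groups with a PI3K transgene, by -0.73 ± 0.24 in IGF1R-caPI3K mice (adjusted p = 0.15) and -0.58 ± 0.24 in IGF1R-dnPI3K mice (adjusted p = 0.118). The latter was -0.79 without IGF1R-dnPI3K replicate 1 (adjusted p = 0.0348) and -0.34 without replicate 3 (adjusted p = 0.313), and the former passed without IGF1R-dnPI3K replicate 3 (adjusted p = 0.0391). Its 3 IGF1R arrays, at 278, 282 and 249, stood above all 6 others, which ran from 128 to 238.5. Dbi, the acyl-CoA binding protein, differed by 0.0548 ± 0.17 and 0.023 ± 0.17.

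In the carnitine shuttle all 5 measured genes lay above 0 between IGF1R-dnPI3K and IGF1R mice, with a median of 0.45. Of all 5942 genes 2500 lay above 0. Of these 5 genes 2 rose, against 6.24% of all genes. Crat, the carnitine acetyltransferase, which moves acetyl groups between coenzyme A and carnitine, read 3387, 3660.5 and 3447 in IGF1R mice, 3593, 3629 and 3736 in IGF1R-caPI3K mice and 4126, 5296 and 7399 in IGF1R-dnPI3K mice. All IGF1R-dnPI3K arrays lay above the other 6, with replicate 1 nearest to them. The rise was 0.64 ± 0.17 (1.56-fold, adjusted p = 0.0366), and its dimmer probe set gave 0.50 ± 0.17 (adjusted p = 0.0746). With active PI3K Crat differed from IGF1R by 0.063 ± 0.17.

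Mlycd, the malonyl-CoA decarboxylase, removes the inhibitor of the shuttle's first enzyme. Its signals were 2065, 1739.5 and 2312 in IGF1R mice, 2102.5, 2136 and 2445 in IGF1R-caPI3K mice and 2691, 3573 and 4042 in IGF1R-dnPI3K mice. The IGF1R-dnPI3K arrays did not overlap with the others, and the rise was 0.74 ± 0.16 (1.67-fold, adjusted p = 0.0193; 0.66 after quantile normalization). Against IGF1R-dnPI3K the IGF1R-caPI3K mice differed by -0.61 ± 0.16 (adjusted p = 0.105).

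Cpt1a, the liver form of the outer membrane carnitine palmitoyltransferase, had the widest gap between the 2 PI3K groups. It read 830, 839 and 1137 in IGF1R mice, 685, 710 and 520 in IGF1R-caPI3K mice and 929, 1358 and 1483 in IGF1R-dnPI3K mice. The IGF1R-caPI3K arrays lay below all others, and IGF1R-dnPI3K replicate 1 lay inside the IGF1R range. Its difference of -0.96 ± 0.20 between IGF1R-caPI3K and IGF1R-dnPI3K mice just missed the threshold (adjusted p = 0.0502) and passed after quantile normalization (-0.95 ± 0.20, adjusted p = 0.046). Without IGF1R-dnPI3K replicate 1 it was -1.17 (adjusted p = 0.00634). Over all 24 alternatives it kept its sign, ran from -1.17 to -0.35 and passed in 9. Several of these alternatives leave the difference unchanged by construction.

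Cpt2, the inner membrane transferase, read 5137, 5556 and 5633 in IGF1R mice, 6186, 6015 and 6062 in IGF1R-caPI3K mice and 5558, 7616 and 9624 in IGF1R-dnPI3K mice. Here too replicate 1 of the IGF1R-dnPI3K group fell inside the IGF1R range; the difference was 0.45 ± 0.16 (adjusted p = 0.0892) with it, 0.65 ± 0.12 (adjusted p = 0.00566) without it and 0.26 ± 0.12 (adjusted p = 0.209) without replicate 3. Slc25a20, the carrier that exchanges acylcarnitine for carnitine, gave 0.20 ± 0.22 (adjusted p = 0.567) with all arrays, 0.51 ± 0.11 (adjusted p = 0.0101) without replicate 1 and 0.0651 ± 0.23 (adjusted p = 0.892) without replicate 3.

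The 3 measured mitochondrial acyl-CoA dehydrogenases of straight chains, Acadl, Acadm and Acads, lay below 0 in both groups with a PI3K transgene. Their medians were -0.51 under active and -0.38 under dominant negative PI3K, and none passed on the deposited scale. Of all 5942 genes, 3195 and 3442 lay below 0. Ivd and Gcdh, acyl-CoA dehydrogenases of amino acid breakdown given further below, were not among the 3. Under dominant negative PI3K Ivd gave 0.11, and Gcdh 0.34 on its brighter and -0.19 on its dimmer probe set. Acadl, the long-chain enzyme, read 5365, 5877 and 6684 in IGF1R mice, 3238, 4166 and 4456 in IGF1R-caPI3K mice and 3779, 5278 and 1279 in IGF1R-dnPI3K mice. The IGF1R arrays were the highest of the 9, and IGF1R-dnPI3K replicate 3 was far below the rest. The differences were -0.60 ± 0.40 (adjusted p = 0.45) and -1.02 ± 0.40 (adjusted p = 0.108). Without IGF1R-dnPI3K replicate 3 the second was -0.41 ± 0.17 (adjusted p = 0.165), and the first, with its value kept and its SE at 0.15, passed (adjusted p = 0.0468). Without IGF1R-dnPI3K replicate 2 the second was -1.44 and passed (adjusted p = 0.0373).

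Acadm, the medium-chain enzyme, read 9264, 10166 and 10638 in IGF1R mice, 7576, 9604 and 9832 in IGF1R-caPI3K mice and 8615, 10042 and 8748 in IGF1R-dnPI3K mice. The groups overlapped on the deposited scale (-0.13 ± 0.12, adjusted p = 0.477, for IGF1R-dnPI3K against IGF1R), and after quantile normalization the difference passed at -0.44 ± 0.12 (adjusted p = 0.0384). Acads, the short-chain enzyme, differed by -0.51 ± 0.21 with active and -0.38 ± 0.21 with dominant negative PI3K, and its other probe set gave -0.17 ± 0.11 and -0.29 ± 0.11. The dominant negative difference was -0.64 ± 0.15 without IGF1R-dnPI3K replicate 3, which passed (adjusted p = 0.0328), and -0.19 ± 0.20 without replicate 1 (adjusted p = 0.523). For Acadvl, the very long-chain enzyme, both probe sets were too dim to test, at 2.8 to 30.3.

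Past the first step, all 4 measured genes of hydration, the second oxidation and thiolysis lay above 0 in IGF1R-dnPI3K against IGF1R mice (median 0.46). Of all 5942 genes 2500 lay above 0. Of these 4 genes 1 rose, against 6.24% of all genes. It was Echs1, the short-chain enoyl-CoA hydratase, which read 3975, 3718 and 3075 in IGF1R mice, 2944, 3090 and 3917 in IGF1R-caPI3K mice and 5023, 5063 and 6501 in IGF1R-dnPI3K mice. All IGF1R-dnPI3K arrays, replicate 1 included, lay above the other 6. The rise over IGF1R was 0.62 ± 0.15 (1.54-fold, adjusted p = 0.0279), and IGF1R-caPI3K mice lay below IGF1R-dnPI3K mice by 0.74 ± 0.15 on the log2 scale (adjusted p = 0.0463).

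Hadhb, the beta subunit of the trifunctional protein, read 12635, 10526 and 12097 in IGF1R mice, 12645, 12917 and 14304 in IGF1R-caPI3K mice and 13386, 16101 and 20122 in IGF1R-dnPI3K mice. The IGF1R-dnPI3K arrays lay above the IGF1R arrays; the difference of 0.48 ± 0.14 narrowly missed the threshold (adjusted p = 0.0504) and was 0.15 ± 0.0914 after quantile normalization. It was 0.62 without IGF1R-dnPI3K replicate 1 (adjusted p = 0.00951) and 0.33 without replicate 3 (adjusted p = 0.0904). Hadh, the 3-hydroxyacyl-CoA dehydrogenase, gave 0.44 ± 0.25 (adjusted p = 0.248), 0.74 ± 0.19 without IGF1R-dnPI3K replicate 1 (adjusted p = 0.02) and 0.23 ± 0.24 without replicate 3 (adjusted p = 0.589). Acaa2, the mitochondrial thiolase, differed by 0.16 ± 0.12 with dominant negative and -0.18 ± 0.12 with active PI3K.

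Of the 4 auxiliary enzymes that bring unsaturated chains into the spiral, 2 rose in IGF1R-dnPI3K mice (against 6.24% of all genes). Eci1, an enoyl-CoA isomerase, had the largest rise of the 31 genes, 0.83 ± 0.17 (1.77-fold, adjusted p = 0.0181). It read 5195, 5241 and 4366 in IGF1R mice, 4986, 5586 and 5671 in IGF1R-caPI3K mice and 6638, 8759 and 11426 in IGF1R-dnPI3K mice. The IGF1R-dnPI3K arrays did not overlap with the others, and their own spread (SD 2399) was far wider than that of IGF1R (SD 492) or IGF1R-caPI3K mice (SD 373).

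Ech1, a dienoyl-CoA isomerase, read 10510, 10742 and 9661 in IGF1R mice, 11282, 11487 and 11789 in IGF1R-caPI3K mice and 12609, 16154 and 20310 in IGF1R-dnPI3K mice. The 3 groups did not overlap, with IGF1R lowest. The rise of 0.64 ± 0.15 with dominant negative PI3K (1.56-fold, adjusted p = 0.0234) was 0.28 ± 0.0949 after quantile normalization and did not pass there (adjusted p = 0.0728). The other 2 did not pass: Eci2, another isomerase, gave 0.25 ± 0.19 (0.50 without IGF1R-dnPI3K replicate 1, adjusted p = 0.0161, and 0.18 without replicate 3, adjusted p = 0.618), and Decr1, the dienoyl-CoA reductase, -0.15 ± 0.20.

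The 2 subunits of the electron transfer flavoprotein moved in opposite directions. Etfb, the beta subunit (promoter shown above), read 6962, 6856 and 6685 in IGF1R mice, 6409, 7224 and 7349 in IGF1R-caPI3K mice and 9397, 10771 and 13837 in IGF1R-dnPI3K mice. Every IGF1R-dnPI3K array lay above the other 6, and the IGF1R and IGF1R-caPI3K arrays overlapped. It rose by 0.71 ± 0.13 over IGF1R (1.64-fold, adjusted p = 0.0154) and was lower in IGF1R-caPI3K than in IGF1R-dnPI3K mice by -0.68 ± 0.13 (adjusted p = 0.0378). Both calls held after quantile normalization, at 0.39 ± 0.0835 and -0.50 ± 0.0835. Its dimmer probe set, with group means of 341, 279 and 282, gave -0.22 ± 0.24 and did not pass.

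Etfa, the alpha subunit, read 6659, 6227 and 6869 in IGF1R mice, 4127, 4204 and 4123 in IGF1R-caPI3K mice and 4871, 5251 and 3479 in IGF1R-dnPI3K mice. All 6 arrays with a PI3K transgene, of either form, lay below the 3 IGF1R arrays, and the IGF1R-caPI3K arrays lay within the range of the IGF1R-dnPI3K arrays. It fell in IGF1R-dnPI3K mice by 0.56 ± 0.14 on the log2 scale (adjusted p = 0.0297). With active PI3K the difference of -0.66 ± 0.14 did not pass on the deposited scale (adjusted p = 0.0693) and passed after quantile normalization (-0.78 ± 0.15, adjusted p = 0.0465) and without IGF1R-dnPI3K replicate 3 (adjusted p = 0.00334). Between the 2 PI3K groups it differed by -0.10 ± 0.14, with a 95% interval of -0.42 to 0.21. Etfdh, which passes the electrons on to ubiquinone, gave -0.0611 ± 0.16 with active and 0.21 ± 0.16 with dominant negative PI3K.

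**Figure D4:**
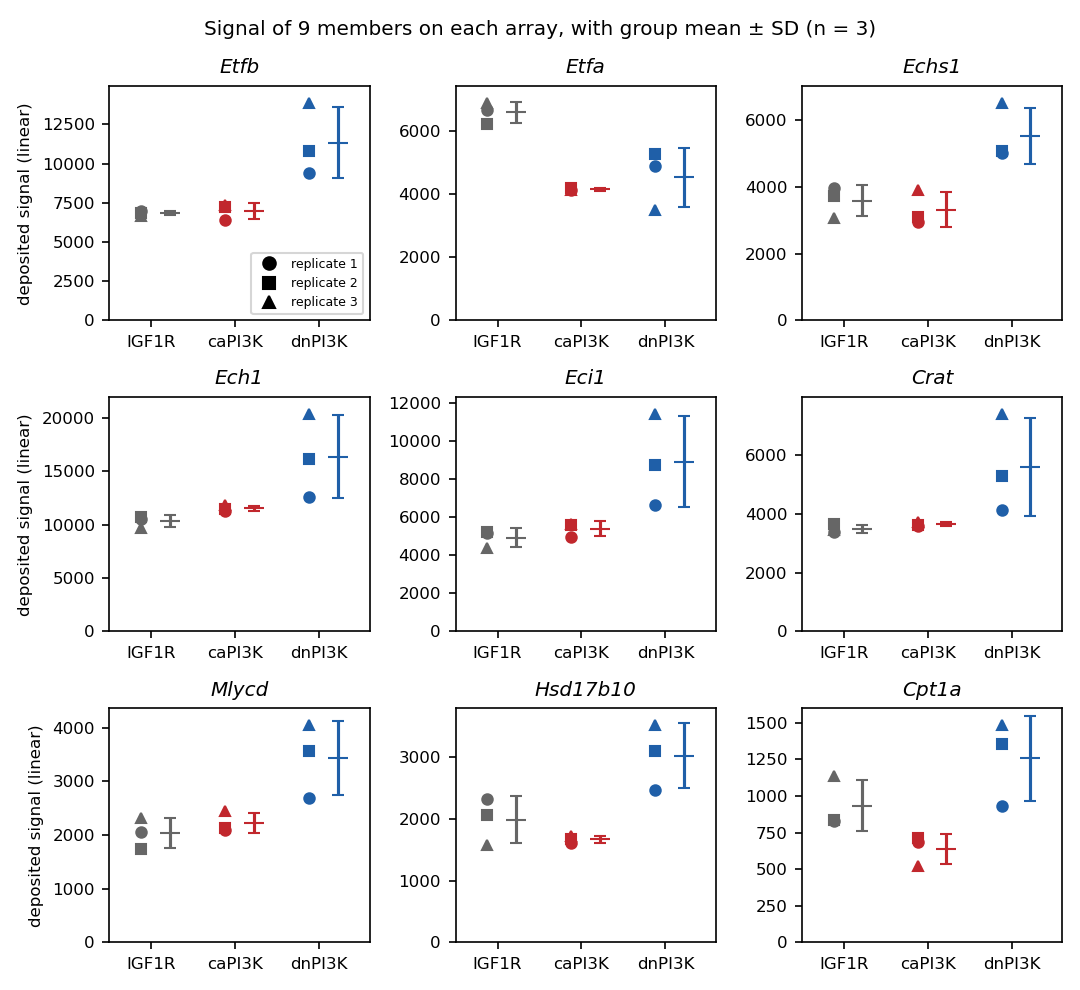
Deposited signal of 9 genes on each array (circles, squares and triangles for replicates 1, 2 and 3), with group mean ± SD (n = 3) beside them; every axis is linear and starts at 0. IGF1R-dnPI3K arrays stand above the other 6 for Etfb, Echs1, Ech1, Eci1, Crat, Mlycd and Hsd17b10, with replicate 1 the lowest of its group in each. The IGF1R arrays stand highest for Etfa. These genes were called on the same arrays, so their separation is a description only. The share of all genes with such a separation was not counted.

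Neither measured peroxisomal gene passed. Acaa1a, a peroxisomal thiolase, differed by -0.0423 ± 0.13 with active and -0.0411 ± 0.13 with dominant negative PI3K. Hsd17b4, the peroxisomal multifunctional enzyme, gave 0.26 ± 0.23 and 0.29 ± 0.23, the latter 0.60 ± 0.14 without IGF1R-dnPI3K replicate 1 (adjusted p = 0.0142) and 0.13 ± 0.23 without replicate 3 (adjusted p = 0.763). Ehhadh, its counterpart for straight chains, was not tested, at 22.9 to 73.3.

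In the breakdown of branched-chain amino acids, lysine and ketone bodies, 1 of 4 measured genes rose in IGF1R-dnPI3K mice (against 6.24% of all genes). Hsd17b10, a mitochondrial dehydrogenase that acts on isoleucine products (promoter shown above), read 2317, 2067 and 1574 in IGF1R mice, 1613, 1675 and 1726 in IGF1R-caPI3K mice and 2459.5, 3101 and 3514 in IGF1R-dnPI3K mice. The IGF1R-dnPI3K arrays lay above all others, and the IGF1R-caPI3K arrays lay inside the IGF1R range. It rose by 0.61 ± 0.16 over IGF1R (1.53-fold, adjusted p = 0.036), and was lower in IGF1R-caPI3K than in IGF1R-dnPI3K mice by -0.84 ± 0.16 (adjusted p = 0.037).

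Gcdh, the glutaryl-CoA dehydrogenase of lysine breakdown, differed by 0.38 ± 0.13 with active PI3K (adjusted p = 0.162) on its brighter probe set and by -0.70 ± 0.18 on the dimmer (adjusted p = 0.102), so that its probe sets disagreed in direction. Oxct1, which activates ketone bodies, gave 0.0627 ± 0.11 and 0.12 ± 0.11, and Ivd, the isovaleryl-CoA dehydrogenase, -0.12 ± 0.14 and 0.11 ± 0.14, with active and dominant negative PI3K.

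The calls were close to the threshold, and each was lost in some fits that left out 1 array. Such a fit also has fewer arrays, and the part of this in the lost calls was not tested. Between IGF1R-dnPI3K and IGF1R mice, with each of the 9 arrays left out in turn, Etfb passed in 7 fits (lost without IGF1R replicate 2, adjusted p = 0.0509, or 3, 0.0623). Eci1, Mlycd and Ech1 passed in 6 each, and all 3 were lost without any 1 IGF1R array, with adjusted p up to 0.0708, 0.0651 and 0.086. Echs1 and Etfa passed in 5 each and were lost without any 1 IGF1R array (up to 0.105 and 0.102), Echs1 also without IGF1R-dnPI3K replicate 3 (0.0613) and Etfa without IGF1R-caPI3K replicate 2 (0.0502). Crat passed in 2, those without IGF1R-dnPI3K replicate 1 or 3, and Hsd17b10 in 1, that without IGF1R-dnPI3K replicate 1 (up to 0.108 and 0.122 in the others). All 8 kept their direction, which leaving out an IGF1R-caPI3K array cannot change. Over these fits the log2 difference ran from 0.56 to 0.84 for Etfb and 0.63 to 1.02 for Eci1. For Crat it ran from 0.42 to 0.84 and for Etfa from -0.68 to -0.38.

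The 3 calls between IGF1R-caPI3K and IGF1R-dnPI3K mice each passed in 3 or fewer of the 9 fits. Hsd17b10 passed in 3 of the 9 fits, those without IGF1R replicate 1 or 3 or IGF1R-dnPI3K replicate 1 (adjusted p up to 0.143 in the others). Etfb passed in 2, without IGF1R-dnPI3K replicate 1 or 3 (up to 0.151), and Echs1 in 1, without IGF1R-dnPI3K replicate 1 (up to 0.186). Their log2 differences ran from -0.98 to -0.73, from -0.81 to -0.53 and from -0.86 to -0.62.

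Another 50 genes of fatty acid and acyl-CoA metabolism, from a list of 95, were measured. Between IGF1R-dnPI3K and IGF1R mice 7 of the 50 rose (against 6.24% of all genes) and 1 fell (against 7.51%). The median of the 50 was 0.0886, against -0.0845 over all genes. The 7 that rose included Pnpla2, the triglyceride lipase of fat droplets, and Lipe, the hormone-sensitive lipase. Pnpla2 read 4626, 4038 and 4324 in IGF1R mice and 5605.5, 10064 and 12397 in IGF1R-dnPI3K mice (1.04 ± 0.23, adjusted p = 0.0202), and Lipe rose by 1.26 ± 0.25 (adjusted p = 0.0163). The thioesterase Acot13 rose by 0.51 ± 0.12, the mitochondrial acetyl-CoA synthetase Acss1 by 0.44 ± 0.10, Esrra, the estrogen-related receptor alpha, by 0.51 ± 0.12 (its dimmer probe set gave -0.0027 ± 0.12), and Prkab1, a subunit of the AMP-activated kinase, by 0.44 ± 0.13. Hibch, of valine breakdown, fell by 0.77 on the log2 scale. After quantile normalization 6 of the 50 rose (against 6.82% of all genes) and 0 fell (against 6.38%), so the fall of Hibch did not pass there.

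Acot1, a thioesterase and PPAR alpha target, read 216, 291 and 266 in IGF1R mice, 263, 272 and 241 in IGF1R-caPI3K mice and 390, 1227 and 1134 in IGF1R-dnPI3K mice, a rise of 1.67 ± 0.36 (adjusted p = 0.0185). As among the oxidation genes, IGF1R-dnPI3K replicate 1 lay nearest to the other groups. Ucp3, the mitochondrial uncoupling protein of muscle, was lower in IGF1R-caPI3K than in IGF1R-dnPI3K mice by -1.56 ± 0.32 (adjusted p = 0.0427), and so was Acss1 by -0.75 ± 0.10 (adjusted p = 0.0115). These were the 2 of 50 genes that passed there (0.555% of all genes were lower). After quantile normalization 3 were lower, against 0.774% of all genes. Between IGF1R-caPI3K and IGF1R mice 0 passed on the deposited scale, and 1 fell after quantile normalization, against 0.471% of all genes. On the deposited scale an unadjusted limma p under 0.05 was found for 6 of the 50, against 1105 of all 5942 genes. The regulators Ppara (-0.058 ± 0.16) and Ppargc1a (0.28 ± 0.27) and the kinase Pdk4 (0.38 ± 0.39) did not pass between IGF1R-dnPI3K and IGF1R mice.

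Markers of cell types moved with the same groups. Over all genes 6.24% rose and 7.51% fell in IGF1R-dnPI3K against IGF1R mice (6.82% and 6.38% after quantile normalization). Of 9 measured markers of heart muscle cells 5 rose and 1 fell in this comparison (0 and 2 after quantile normalization). Their summed signal was 156118 to 167800 in IGF1R mice, 172080 to 182631 in IGF1R-caPI3K mice and 186256 to 240504 in IGF1R-dnPI3K mice. On both scales, of 7 fibroblast markers 4 fell and of 4 macrophage markers 3 fell. Their sums were 29427 to 32118 and 2564.5 to 2832 in IGF1R mice, and 21558 to 25302 and 1313 to 2061 in IGF1R-dnPI3K mice. The part of these shifts, and of the CreX and Gapdh ratios, in the differences of the oxidation genes was not tested.

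Other tissues and cell types were sought by their markers. The 4 measured adipocyte markers did not pass (summed signal 1447.5 to 1670 in IGF1R, 718 to 1010 in IGF1R-caPI3K and 1076 to 1769.5 in IGF1R-dnPI3K mice), and Cidec, Retn and both probe sets of Ucp1, the defining gene of brown fat, were too dim to test. Of 6 measured skeletal muscle markers 1, Myl1, fell in IGF1R-dnPI3K mice (6705, 7207 and 6118 against 1346, 2189 and 2419), while Myh1, Myh2, Tnnt3 and Tnni2 were too dim to test. After quantile normalization 2 of the 6 fell. Sums of the 6 on the deposited scale ran from 10459 to 11794 in IGF1R, 13916 to 15524 in IGF1R-caPI3K and 5896 to 6240 in IGF1R-dnPI3K mice. Of 8 endothelial markers 1 rose and 2 fell in IGF1R-dnPI3K against IGF1R mice (1 and 1 after quantile normalization). The 1 measured liver marker, the 1 measured brown fat marker and the 2 measured red blood cell markers did not pass.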

How the data were processed

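The data were linear intensity values as deposited, 1 for each of 12488 probe sets (66 of them controls) on every array. From the values, the arrays share a 2% trimmed mean (500.3 to 500.4); which algorithm made them is not stated in the sources used here. Groups came from the sample titles and replicates were numbered in accession order, which pairs nothing. Whether further mice, litters or days are shared is not stated, so p-values measure the spread between these arrays.

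Values below 32.4, the 20th percentile of positive values, were raised to it, and log2 taken. Probe sets above the 40th percentile of an array on at least 3 arrays were kept (7898), and 1 linear model per probe set over all 9 arrays was fitted with limma 3.58.1 (R 4.3.3; statmod 1.5.0) with a trended variance. P-values were adjusted by Benjamini-Hochberg over all 7898, with a threshold of 0.05, and the method was tested on simulated data. A gene was read from its brightest probe set, 5942 genes in all. Differences refer to the log2 scale after the floor; 0.346% of tested values were at or below it. For arrays, their number limits the precision.

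Probe sets were named by the platform's annotation, which gives 1 symbol for 10833, several for 396 and none for 1193. Of the first, 10817 matched the RefSeq gene table. Values on every array are given for genes that passed in any comparison on either scale and for the main entry and core enzymes, and other pathway genes were named when they passed. Values for other genes, among them the regulators Ppara, Ppargc1a and Pdk4 and the genes with several probe sets, were given after they were seen. The genes and lists, markers included, were chosen with earlier results of these data known. Alternatives covered scaling, floor, filter, variance model, arrays in the fit, mouse number series, probe set choice and each array left out; 3 were added after seeing the data.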

Additional observations from a re-analysis of the deposited data

How the results depend on the processing

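All 8 called differences between IGF1R-dnPI3K and IGF1R mice kept their sign in each of 24 alternatives. So did all 3 between IGF1R-caPI3K and IGF1R-dnPI3K mice. The filter, the variance trend and the arrays compared leave a gene's log2 difference unchanged, as does leaving out an array of the third group. The differences were also chosen because they passed on these same arrays, so their constant sign is a description only. Counts over the 31 genes follow as rose and fell, against 7 and 1 for IGF1R-dnPI3K against IGF1R. Quantile normalization gave 3 that fell, a common median 0 that fell, no filter 1 and 0, no variance trend 3 and 0, only the arrays compared 0 and 0, and the mouse number series as a block 0 and 0 with a median of -0.0055. That block sets IGF1R-dnPI3K replicate 1 alone against the other groups by construction. The mean of all probe sets of a gene gave 6 and 1, and the rise of Etfb did not pass there. For IGF1R-caPI3K against IGF1R (0 and 0) quantile normalization gave 1 that fell, array weights 1 and 2, and only the arrays compared 5 that fell; the median under a common median was 0.04. For IGF1R-caPI3K against IGF1R-dnPI3K (3 lower) a common median, no filter, no variance trend, only the arrays compared and the block each gave 0, and array weights 10. With the mean of all probe sets 3 were lower, Cpt1a among them and Etfb not. The causes were not tested, beyond the number of probe sets or arrays that the filter and the arrays compared change. No share of all genes is given for no filter, no variance trend, array weights, the block or the mean of all probe sets. For these settings a change in the 31 genes cannot be told from a change over all genes.

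Added after seeing the data, the fit without IGF1R-dnPI3K replicates 2 and 3 gave 0 and 0 with a median of -0.0921 against IGF1R, 5 that fell for IGF1R-caPI3K against IGF1R, and 0 lower between the PI3K groups. Quantile normalization without IGF1R-dnPI3K replicate 1 gave 14 and 3, 1 that fell and 11 lower in the same order, and without replicate 3 it gave 2 and 2, 2 that fell and 1 lower. No share of all genes is given for these quantile fits. IGF1R-dnPI3K replicate 1 was picked out by the values of these same genes, so the larger counts without it support nothing. With each array left out in turn, IGF1R-dnPI3K against IGF1R ranged from 0 to 15 that rose, 0 to 3 that fell and a median of 0.0961 to 0.37. IGF1R-caPI3K against IGF1R ranged from 0 to 3 that fell, with 0 that rose and a median of -0.14 to -0.0368. IGF1R-caPI3K against IGF1R-dnPI3K ranged from 0 to 13 lower, with 0 higher and a median of -0.42 to -0.16. Of the fits with an array left out in turn, only those without IGF1R-dnPI3K replicate 1 or 3 have shares of all genes given. No paired analysis was possible because replicate numbers follow accession order and pair no mice; the mouse number series, which puts several mice of different groups together without pairing them, was fitted as the block given above. Signals near the floor, as for Acadvl, Slc27a2 and Ehhadh, allow no comparison.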
